A study of Mus musculus with 27 samples.

Results

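Liver DNA methylation at iron-related genes was compared between male C57B/6J mice fed carbonyl iron at 8.3 g per kg (high-iron diet, HID) and at 50 mg per kg (standard-iron diet, SID). The labels give an age of 6 weeks for the mice put on both diets. The compared set was every locus of the deposited methylation table, 48 of 48 loci in 10 genes, and it drew on 12 of the 27 libraries of the series. Each of the 3 animals per diet gave an HpaII and an MspI library, and the table holds 1 score per locus and animal. Both enzymes recognise CCGG, but methylation of the inner cytosine blocks HpaII and not MspI. The table also holds 3 mice fed 0.9 mg per kg (low-iron diet, LID) from 3 weeks of age, and they entered the estimate of the spread. The authors' choice of loci was not independent of the comparison. Every locus had a deposited p across the 3 diets below 0.05 (highest 0.0494), computed in part from the HID and SID scores used here.

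Scores in SID and HID ran from 1.18 to 98.4 and carry no stated unit. Neither headers nor labels tell which end of the scale means methylated, so directions are given for the score alone. Coverage is likewise not given, which leaves the depth unknown, and no counting interval can be attached to a score. Coordinates are those of the deposited table, in build mm9 per the submitters' processing notes, and region names are the authors'. Where a gene has several loci in 1 intron or exon, a letter gives their order along the chromosome.

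Hepatocytes, the main cells of the liver, adjust the iron hormone hepcidin to iron load. The ligands BMP2 and BMP6, released by the cells that line liver capillaries, bind receptors on hepatocytes, and receptor-activated SMAD proteins then carry the signal to the hepcidin gene. SMAD6 and SMAD7 inhibit that signal. DNA methylation in mammals lies mostly on cytosines of CpG pairs, and CpG-rich promoters of active genes are usually unmethylated while CpG-poor gene bodies are usually methylated.

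By role, 5 loci lay in the BMP ligand genes Bmp2 and Bmp6, 19 in the inhibitory SMAD genes Smad6 and Smad7, and 1 in Smad9, a receptor-activated SMAD gene. Another 7 lay in Slc11a2, which encodes the divalent metal importer DMT1, and 13 in the ZIP metal importer genes Slc39a5 and Slc39a11. Of the other loci, 2 lay in Steap3, an endosomal ferrireductase gene, and 1 in Ftl1, the ferritin light chain gene. The authors placed 38 loci in introns, 8 in promoters or first exons and 2 in other exons.

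RefSeq promoter windows (build GRCm38.p6, the 250 bases before a transcription start) were found for 7 of the 10 genes, and 3 are shown because their genes hold promoter or first-exon loci at opposite ends of the score. Capitals mark CCGG, the site of both enzymes, which reads the same on both strands. It was present in 47.1% of 32851 such windows of all genes. The windows are in another build than the scored loci, so no scored locus was placed in them.
Bmp6, chr13:38345466-38345715, plus strand: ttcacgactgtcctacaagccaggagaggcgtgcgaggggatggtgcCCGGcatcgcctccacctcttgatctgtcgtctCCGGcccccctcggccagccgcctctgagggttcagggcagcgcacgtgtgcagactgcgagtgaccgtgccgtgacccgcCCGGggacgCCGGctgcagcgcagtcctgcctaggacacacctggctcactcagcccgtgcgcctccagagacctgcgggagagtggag
Smad6, chr9:64022060-64022309, minus strand: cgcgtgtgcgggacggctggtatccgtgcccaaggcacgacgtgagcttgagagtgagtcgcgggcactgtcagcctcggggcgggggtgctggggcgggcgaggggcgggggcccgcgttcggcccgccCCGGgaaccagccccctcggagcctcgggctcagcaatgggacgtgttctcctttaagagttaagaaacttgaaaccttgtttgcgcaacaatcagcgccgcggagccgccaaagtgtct
Slc39a5, chr10:128401225-128401474, minus strand: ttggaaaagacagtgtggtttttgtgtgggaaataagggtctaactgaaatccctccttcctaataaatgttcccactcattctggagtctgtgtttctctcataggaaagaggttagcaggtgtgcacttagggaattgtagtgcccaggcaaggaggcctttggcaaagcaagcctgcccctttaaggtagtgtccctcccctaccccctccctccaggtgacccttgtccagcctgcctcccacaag

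The Bmp6 window held 22 CpG pairs and 4 CCGG sites, and the Smad6 window 27 CpG pairs and 1 CCGG site. Both windows were CpG-rich against a median of 6 CpG pairs over all windows. The Slc39a5 window held 0 CpG pairs, and a second listed start of that gene had 3 CpG pairs and 0 CCGG sites. With 0 CCGG sites in either window, the scored promoter locus of Slc39a5 would lie outside both. In SID the first-exon locus of Bmp6 had a mean score of 3.96, while the promoter locus of Slc39a5 had a mean of 90.5. The CpG counts describe the windows and not these scored loci.

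One HID animal stood apart from the other 2. The HID animals are labelled A4, A5 and M5, the SID animals A1, A2 and A3, and the LID animals M8, M9 and M0. The labels do not explain the letters. Over the 8 promoter and first-exon loci, the median score was 3.34, 5.91 and 9.12 in A1, A2 and A3. It was 6.86 in A4 and 7.66 in A5, within the SID range, but 29.4 in M5. The LID animals stood at 24.3 in M8, 61.1 in M9 and 46.1 in M0. Thus the highest SID or HID animal at these loci was the only one of the 6 whose label starts with M.

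M5 lay above both A4 and A5 at 33 loci, below both at 13 and between them at 2. Its median distance from the mean of A4 and A5 was 11.3 score units, whereas A4 and A5 differed from each other by a median of 3.01. M5 lay on the LID side of the SID mean at 44 of the 48 loci, and the mean of A4 and A5 at 28. Scores also covered a narrower range in M5, with an SD over the 48 loci of 20.6. That SD was 31.6 in A4, 30.5 in A5, and 32.9, 31.2 and 31.5 in A1, A2 and A3. In M8, M9 and M0 it was 21.0, 13.2 and 10.9. M5 was above its diet mates at many low-scoring loci and below them at some high-scoring ones, such as Steap3 intron 2. All SID animals carry the letter A and all LID animals the letter M, so letter and diet cannot be told apart there. Within HID both letters occur, and score differences at the named loci, genes and regions are therefore given with and without M5.

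**Figure D1:**
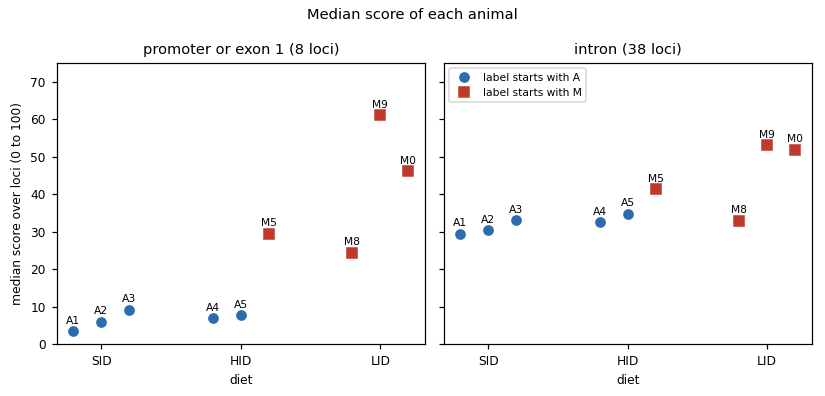
Median deposited score of each animal over the 8 promoter and first-exon loci (left) and the 38 intron loci (right), by diet, with colour and shape for the letter of the animal's label. A4 and A5 lie near the SID animals (at 6.86 and 7.66 on the left), and M5 lies at 29.4, nearer to the LID animals.

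Between the 2 diets no locus passed the test. With limma over the 9 animals and Benjamini-Hochberg adjustment over the 48 loci, 0 loci were higher (0.0%) and 0 lower (0.0%) in HID at an adjusted p below 0.05. Unadjusted p was below 0.05 at 3 loci, and the lowest adjusted p was 0.307. An ordinary linear model without limma's moderation also called 0 loci, with 4 at an unadjusted p below 0.05. Mean scores were higher in HID at 30 loci and lower at 18, with a median difference of 2.83 score units and a range from −17.4 to 21.0. The absolute difference reached 10 units at 9 loci.

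Without M5 the balance turned. The mean of A4 and A5 was above the SID mean at 21 loci and below it at 27, and 13 loci changed direction. The median absolute difference went from 5.67 to 3.66 units, and 5 loci reached 10 units. In a fit to the 5 A-labelled animals alone, added after the scores had been seen, limma called 2 loci lower (4.17%) and 0 higher, in Slc39a11 intron 5 and Smad7 intron 3. The scores of these 5 animals had also entered the authors' choice of loci, so these calls are not independent of that choice. When all diets stayed in the fit and M5 alone was left out, 0 loci were called, with a lowest adjusted p of 0.750. A term for the letter over all 9 animals gave the same result by design and is no second check. Diet already accounts for the letter in SID and LID, so the term takes up the scores of M5 alone.

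Averaged over all loci, A1, A2 and A3 scored 37.8, 37.0 and 38.9, and A4, A5 and M5 scored 37.1, 36.2 and 46.1. The difference of 1.94 units (39.8 ± 5.45 against 37.9 ± 0.943, SD, n = 3 each) was smaller than the SD within HID (exact two-sided permutation p = 0.9). Without M5 it was −1.19. With 3 animals against 3, such a test cannot give a p below 0.1, at any locus.

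The diets did not overlap at 4 loci, higher in HID at 1 (2.08%) and lower at 3 (6.25%). Random labels would separate 3 animals from 3 at a locus, in either direction, with a probability of 0.1. The count of 4 among 48 is no more than that. The locus that was higher lay in intron 7 of Slc39a11, and the lower ones in Slc39a11 intron 5, Slc11a2 exon 12 and Steap3 intron 5. Without M5, 2 loci (4.17%) stood above all SID animals and 10 (20.8%) below them. In either direction 2 animals separate from 3 more easily than 3 do, so these counts cannot be set against those with M5. The lean to lower scores was not tested. The selection of loci bears on these counts, because a locus entered the table through the spread among all 3 diets. The contrast of HID with SID held a median of 6.56% of the sum of squares between diets, and LID was farther from SID than HID was at 47 of 48 loci. It held over 50% at 4 loci, 3 of them in Slc39a11 and 1 in Slc11a2, and reached 84.1% at the Slc39a11 intron 5 locus.

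**Figure D2:**
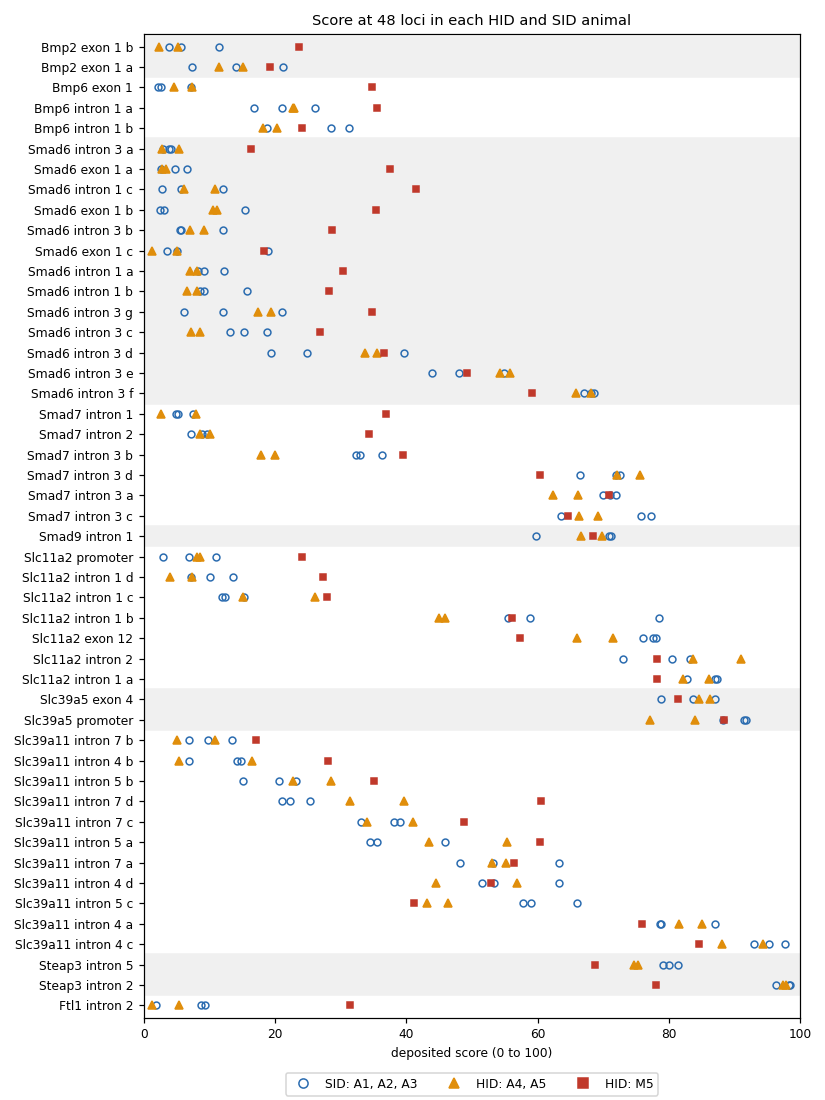
Deposited score (horizontal axis) of each SID animal (circles), of A4 and A5 (triangles) and of M5 (squares) at all 48 loci, grouped by gene. M5 lies to the right of both other HID animals at 33 loci, as at Smad6 exon 1 a with 37.5 against 2.73 and 3.42.

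The first-exon loci of the ligand genes had low scores in SID, and M5 was the highest HID animal at each. Bmp6 exon 1 (chr13:38438105-38438108) scored 2.62, 2.14 and 7.14 in A1, A2 and A3, and 4.62, 7.31 and 34.7 in A4, A5 and M5. A4 and A5 fell among or just above the SID values and M5 stood far above them, so the difference of 11.6 ± 10.1 (SE) became 2.0 without M5. Bmp2 exon 1 b (chr2:133378566-133378569) scored 5.65, 3.82 and 11.5 in SID, and 5.14, 2.25 and 23.6 in HID. Here M5 was above all SID animals, and without it the sign of the difference turned from 3.34 to −3.29. The neighbouring Bmp2 exon 1 a (chr2:133378209-133378212) had overlapping groups, with 14.0, 21.2 and 7.31 in SID and 15.1, 11.4 and 19.2 in HID. Its difference was 1.05 with M5 and −0.939 without. At the 2 intron 1 loci of Bmp6 the groups overlapped. The difference at intron 1 a was 5.80, and 1.55 without M5, which scored 35.6 against 22.9 and 22.7 in A4 and A5. At intron 1 b it was −5.32, and −6.93 without M5.

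Smad6 held the most loci, 13. Over its loci the animals averaged 15.3, 17.5 and 21.2 in SID and 17.8, 18.4 and 34.1 in HID. The gene's mean difference of 5.46 units shrank to 0.143 without M5, and the number of loci above the SID mean went from 10 to 7. It also held the loci with the widest gap between M5 and the other HID animals. Smad6 exon 1 a (chr9:63868025-63868028) scored 2.54, 4.71 and 6.52 in SID, and 2.73, 3.42 and 37.5 in HID. At Smad6 intron 1 c (chr9:63867890-63867893) the SID scores were 12.0, 2.74 and 5.62 and the HID scores 10.8, 6.11 and 41.4. M5 exceeded the mean of its diet mates by 34.4 and 33.0 units at these 2 loci, the largest gaps among the 48. The differences between diets were 9.95 and 12.7, and −1.52 and 1.66 without M5.

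The other first-exon loci of Smad6 were more scattered within SID. Smad6 exon 1 b (chr9:63868628-63868631) scored 3.13, 15.5 and 2.50 in SID and 10.6, 11.1 and 35.4 in HID. Smad6 exon 1 c (chr9:63869462-63869465) scored 3.55, 4.98 and 18.9 in SID and 1.18, 4.97 and 18.3 in HID, so M5 did not exceed the highest SID animal there. The differences were 12.0 ± 9.37 and −0.974 ± 7.20 (SE), and without M5 they were 3.83 and −6.06. At Smad6 intron 3 f, a high-scoring locus (SID mean 67.9), the order was the opposite, with M5 at 59.1 below A4 and A5 at 65.8 and 68.2. The difference there was −3.58, and −0.938 without M5.

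Smad7 had 2 loci higher in HID and 4 lower. In intron 1 (chr18:75530172-75530175) the SID animals scored 4.92, 7.44 and 5.13 and the HID animals 7.88, 2.61 and 36.9. Only M5 lay outside the SID range by more than 3 units, and the difference of 9.98 became −0.587 without it. In intron 3, at locus b (chr18:75543378-75543381), SID scored 36.3, 32.3 and 32.9, and HID scored 19.9, 17.8 and 39.5. A4 and A5 lay below every SID animal while M5 lay above them. The 3-animal difference of −8.07 ± 7.24 (SE) had an adjusted p of 0.721 in limma, and among A-labelled animals the difference was −14.9 with an adjusted p of 0.0295. The gene's mean over 6 loci was 43.6 in both diets, and the difference was −3.74 without M5.

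Smad9 intron 1 (chr3:54568571-54568574) had overlapping groups, with 71.1, 59.8 and 70.9 in SID and 66.6, 69.8 and 68.5 in HID. Its difference of 1.06 units had a 95% interval from −10.9 to 13.0 and was 0.964 without M5. M5 lay between A4 and A5 at this locus.

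Slc11a2 held 1 of the 4 loci without overlap, at exon 12 (chr15:100232032-100232035). SID animals scored 77.5, 76.0 and 78.1, and HID animals 66.0, 71.5 and 57.3. Every HID animal was below every SID animal, with a difference of −12.3 (95% interval −24.8 to 0.182, limma adjusted p = 0.570) and −8.48 without M5. Slc11a2 intron 1 b (chr15:100250364-100250367) scored 78.5, 58.8 and 55.5 in SID and 45.9, 45.0 and 56.1 in HID. The groups overlapped through M5 and A3, and the difference of −15.3 was −18.9 without M5 and −8.19 without A1, the highest SID animal.

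At the promoter of Slc11a2 (chr15:100253702-100253705) scores were low, at 2.97, 6.85 and 10.9 in SID and 8.59, 8.02 and 24.1 in HID. A4 and A5 lay inside the SID range there, and the difference of 6.67 became 1.39 without M5. Of the gene's 7 loci, 4 were higher in HID and 3 lower, which turned to 3 and 4 without M5. Its mean over loci was 48.1 in SID and 47.1 in HID, a difference of −0.956 that was −2.33 without M5.

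Slc39a11, which encodes the zinc importer ZIP11, held the loci with the largest differences in both directions. Slc39a11 intron 7 d (chr11:113144890-113144893) scored 22.3, 25.3 and 21.0 in SID and 31.3, 39.6 and 60.6 in HID. All HID animals exceeded all SID animals, although the HID values lay far apart. The difference was 21.0 ± 7.30 (SE, limma adjusted p = 0.307, 95% interval 5.25 to 36.7) and 12.6 without M5. Slc39a11 intron 5 c (chr11:113323691-113323694) scored 59.0, 57.8 and 66.1 in SID and 46.3, 43.2 and 41.2 in HID. The HID animals lay close together and below all SID animals. This difference of −17.4 ± 5.84 (SE, limma adjusted p = 0.307) was −16.2 without M5, and among A-labelled animals its adjusted p was 0.0295. The locus entered the table largely through this same contrast, which held 84.1% of its sum of squares between diets. The p-values here are therefore no independent evidence.

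A second locus in the same intron went the other way. Slc39a11 intron 5 a (chr11:113249773-113249776) scored 35.5, 34.4 and 45.9 in SID and 55.3, 43.4 and 60.3 in HID. A5 lay inside the SID range, and the difference was 14.4 ± 6.08 (SE, limma adjusted p = 0.535) and 10.8 without M5. Over the gene's 11 loci, 7 were higher and 4 lower in HID, and the means over loci differed by 2.34 units. Without M5, 5 were higher and 6 lower, and the means differed by 0.221. Opposite signs within 1 gene, and within 1 intron, thus cancelled in its average.

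Slc39a5, which encodes the zinc importer ZIP5, scored high at both loci. Its promoter (chr10:127838847-127838850) scored 91.4, 88.3 and 91.7 in SID and 84.0, 77.2 and 88.4 in HID. A4 and A5 were below all SID animals and M5 was level with A2, so the difference was −7.29 with M5 and −9.90 without. This was the only one of the 8 promoter and first-exon loci with a SID mean over 50.

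Both loci of Steap3 were lower in HID. Steap3 intron 5 (chr1:122127797-122127800) scored 79.2, 81.4 and 80.0 in SID and 74.6, 75.4 and 68.7 in HID. The groups did not overlap, with a difference of −7.27 ± 5.42 (SE) that was −5.18 without M5. At Steap3 intron 2, M5 scored 78.1 while the other 5 animals lay between 96.3 and 98.4, and the difference of −6.57 became −0.0495 without M5. In Ftl1 intron 2 (chr7:52714382-52714385), scores were 8.69, 1.85 and 9.32 in SID and 1.24, 5.32 and 31.4 in HID. M5 was again the high animal, and the difference of 6.02 became −3.34 without it.

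**Figure D3:**
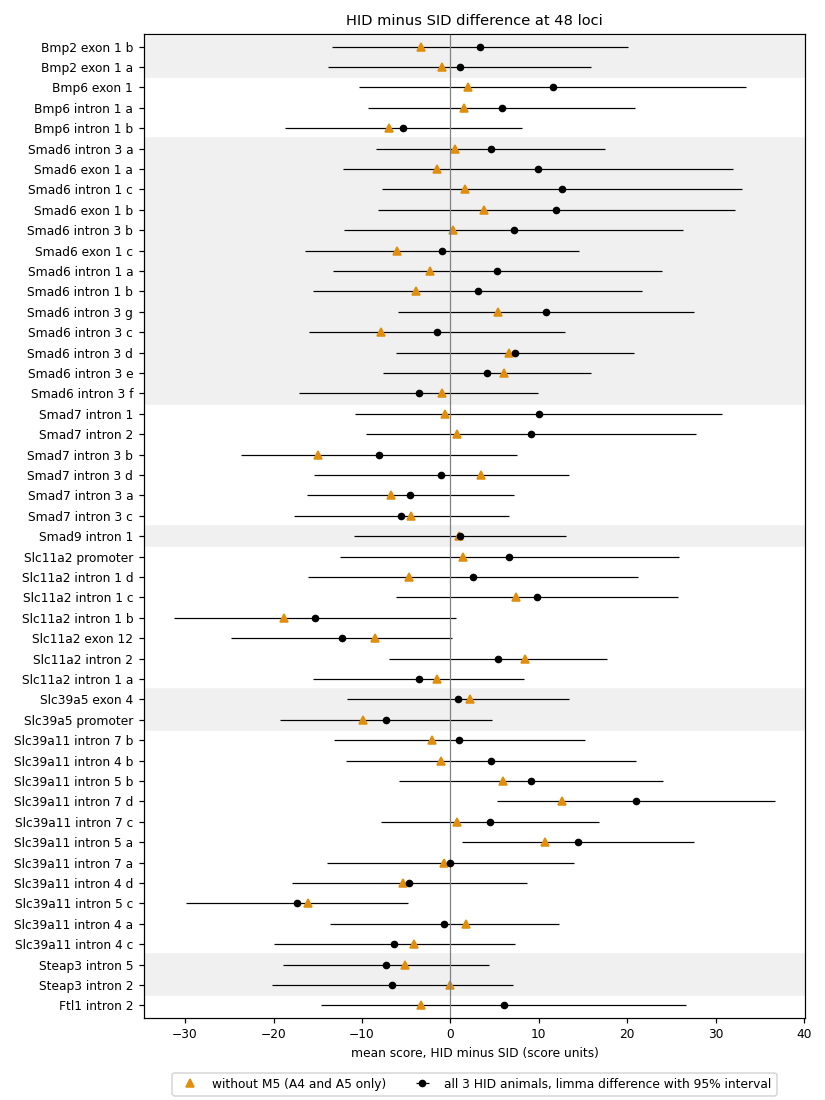
HID minus SID difference in mean score at the 48 loci with all 3 HID animals (circles, bars are 95% intervals from limma) and without M5 (triangles). Intervals leave out 0 at 3 loci, all in Slc39a11 and before adjustment over the loci, and the triangle lies nearer to 0 than the circle at 31 loci.

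By region name, first exons had the largest median gap between M5 and its diet mates. All first-exon loci had low SID means, from 3.96 to 14.2, so this ranking does not separate region from score level. Some low-scoring intron loci had gaps as wide, 31.7 units at Smad7 intron 1 and 28.1 at Ftl1 intron 2. Over the 38 intron loci the median excess of M5 over its diet mates was 9.34. The 6 exon 1 loci had a median SID score of 7.01 and a median HID score of 14.9. M5 exceeded the mean of A4 and A5 at 6 of 6, by a median of 22.2 units. The median difference between diets was 6.64 with M5 and −1.23 without it. The 11 intron 1 loci had a median difference of 3.08 with M5 and −1.55 without. The 4 intron 2 loci, each in another gene, had 5.69 and 0.367. At the 11 intron 3 loci, all in Smad6 and Smad7, these values were −1.02 and 0.296. The 4 loci each in introns 4, 5 and 7 lay in Slc39a11 except for 1 in Steap3, and their median differences were −2.65, 0.926 and 2.77. Without M5 these were −2.61, 0.388 and 0.0025, and the intron 7 loci went from 4 higher and 0 lower to 2 and 2. The 2 promoter loci had a median difference of −0.310 with M5 and −4.25 without. The 2 exons other than first exons, Slc11a2 exon 12 and Slc39a5 exon 4, had M5 below the mean of A4 and A5. Loci of 1 gene come from the same animals and are not independent, so these medians are descriptions without a test.

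HID animals spread more widely than SID animals. The median SD over 3 animals was 7.28 units in HID and 3.98 in SID, and it was larger in HID at 37 of 48 loci. SDs ranged from 1.48 to 19.9 units in HID and from 0.679 to 12.4 in SID. At promoter and first-exon loci the median SD was 10.4 in HID and 3.99 in SID, and at introns 7.06 and 3.87. Between A4 and A5 alone the median SD, from 2 animals, was 2.13, below that of SID.

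**Figure D4:**
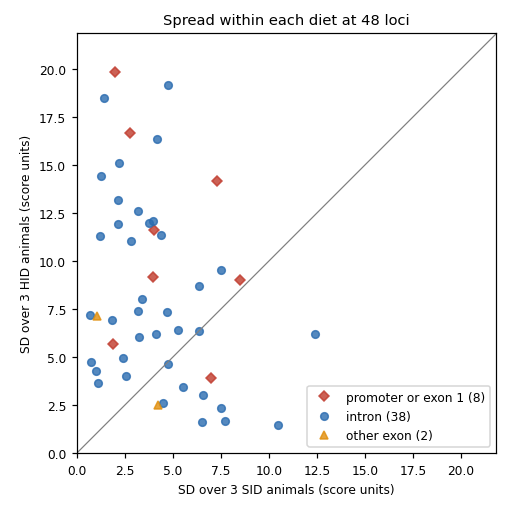
SD of the score over the 3 HID animals (vertical axis) against the SD over the 3 SID animals (horizontal axis), in score units, for each of the 48 loci by region class, with the line of equal SD. Of the points, 37 lie above the line, and Smad6 exon 1 a lies highest with an HID SD of 19.9.

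The RNA of the same genes was measured in RNA-seq libraries of the series, and the labels do not tie them to the animals used for DNA. In the authors' deposited table, with 1 combined FPKM value per diet, 7 of the 10 genes differed between HID and SID at an adjusted p below 0.05, 5 higher and 2 lower. Among all 11374 tested genes 2.88% were higher and 3.58% lower. The median log2(FPKM + 1) change was 0.73 over the 10 genes and −0.05 over all tested genes. Smad9 went from 1.66 to 5.78 FPKM and Smad7 from 1.66 to 6.93, Bmp6 from 0.803 to 2.51, Bmp2 from 3.73 to 7.10 and Smad6 from 2.06 to 3.90 in the authors' deposited table. Steap3 went from 5.36 to 2.82 FPKM (adjusted p = 0.0129 in that table, from the authors) and Slc11a2 from 5.55 to 2.15. Slc39a11 (5.69 to 4.37 FPKM) and Slc39a5 (0.630 to 1.67) were not called in the authors' deposited table, nor was Ftl1, whose close copies in the genome can share its reads.

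Set beside the scores, limma with all animals called 0 of the 48 loci, so none of these 7 genes could hold a called one. Smad7 held 1 of the 2 loci called among A-labelled animals. Slc39a11, with the largest score differences, had an adjusted p of 0.513 for RNA in the authors' deposited table. Slc11a2 and Steap3, the 2 genes called lower in RNA in HID, each held a locus at which all HID scores were below all SID scores. So did Slc39a11, whose RNA was also lower in HID but not called. These were the only 3 such loci among the 48 (6.25%), and Slc11a2 held 7 loci in which 1 could occur. No link between score and RNA was tested. Smad9 had the smallest deposited p among the 10 genes after Smad7, and at its locus the diets overlapped with a score difference of 1.06 units. Of 7 other iron genes without a scored locus, 3 were called higher and 0 lower in the authors' deposited table. These were Hamp2, a mouse hepcidin paralog (275 to 2660 FPKM), Id1, a BMP target gene (8.54 to 73.6), and Slc40a1, the iron exporter ferroportin (35.9 to 80.0). Hamp, the hepcidin gene, was not called in the authors' deposited table (3200 FPKM in SID, 6028 in HID, adjusted p = 0.0685). Fth1, Hfe2 and Tmprss6 were not called either. Hamp and Hamp2 are close copies that can share reads.

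**Figure D5:**
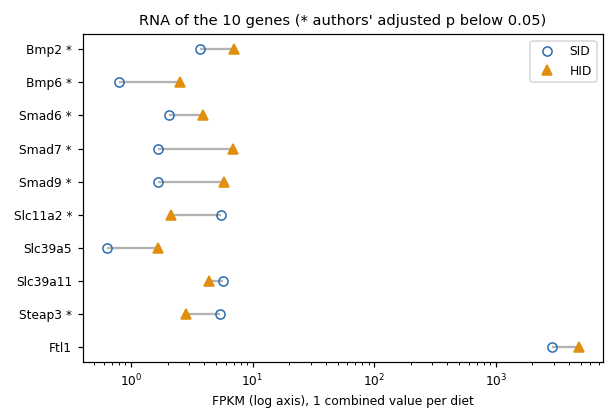
Authors' combined FPKM (log axis) of the 10 genes with scored loci in SID (circles) and HID (triangles), 1 value per diet without error, with asterisks for an authors' adjusted p below 0.05. Of the genes with asterisks, the 5 BMP and SMAD genes lie to the right in HID, and Slc11a2 and Steap3 to the left. Of those without, Slc39a11 lies to the left, and Slc39a5 and Ftl1 to the right.

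Bulk liver DNA pools all its cell types, so the makeup of the tissue enters every score. In the deposited RNA all 8 hepatocyte markers were detected, with a summed 37716 FPKM in SID and 31827 in HID and 0 called by the authors' test. Of all 11374 tested genes, that test called 2.88% higher and 3.58% lower. Summed Kupffer cell markers (liver macrophages, 6 of 6 detected) stood at 69.8 FPKM in SID and 115 in HID, with 2 called higher. The 5 markers of other leukocytes summed to 7.76 and 21.8 FPKM, also with 2 called higher. Cholangiocyte markers summed to 3.42 and 5.24 FPKM with 1 of 4 called higher, and erythroid markers to 739 and 756 with 1 of 4 called lower. Of 5 stellate markers (65.3 and 92.2 FPKM) and 4 endothelial markers (61.6 and 64.6) 0 were called. None of these markers was at 0 in both diets, and the most abundant markers weigh most in each sum. More cells of a type and more RNA per cell cannot be told apart in such data, and the part of cell makeup in the scores was not tested.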

How the data were processed

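The methylation score per locus and animal is the authors' deposited value. It comes from HpaII and MspI libraries, per the labels' protocols, although the titles of these libraries begin with Bisulfite-seq. How that name bears on the score was not resolved here. The steps from reads to score, and the coverage, are not given in the sources. Per the submitters' processing notes, build mm9, TopHat and Cufflinks 2.2.1 were used. For RNA, the authors deposited a combined FPKM value for each diet with their p-values and adjusted p-values. That unit follows from the tool named in the notes. The column GFE is unexplained in the headers and was assigned to HID as the only diet left. Genes with test status OK counted as tested. A one-way F test of the diets on the deposited scores gave the authors' p-value at each locus (largest gap 4.80e-09).

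Each score column was matched to an animal by the label that both its libraries share. HID and SID were compared per locus with limma 3.58.1 (R 4.3.3), all 9 animals in the fit and p-values adjusted by Benjamini-Hochberg across the 48 loci, with a threshold of 0.05. The fit was tested on simulated normal scores with a common spread, known shifts, no outlying animal and no preselection of loci. These settings differ from the data, so that test checks the calculation only. Exact permutation tests and summaries used Python 3.11.15 with scipy 1.17.1. The limma p-values rest on a spread between animals that is pooled over the 3 diets at each locus and moderated across loci. LID animals spread the most, with a median SD of 10.8 units against 7.28 in HID and 3.98 in SID. The permutation p-values rest on the 6 HID and SID animals.

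Loci named with values were the largest absolute difference in each gene, the 5 largest in each direction and every promoter or first-exon locus, 19 in all. Steap3 intron 2, the intron 1 loci of Bmp6 and Smad6 intron 3 f were named after their values were seen. The members, lists and rules were chosen with earlier results of these data known. Alternatives were a fit to 6 animals, a logit scale, no moderation, a trend, a replicate block, a filter on low scores and a stricter threshold. Each HID or SID animal was also left out in turn. Comparisons of A-labelled animals alone and a term for the letter were added after seeing the data.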

Additional observations from a re-analysis of the deposited data

How the results depend on the processing

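The count of 0 loci called in either direction held in the fit to 6 animals, on the logit scale, without moderation, with a trend and with the block. It also held without each of the 6 HID and SID animals. The LID animals, which entered the estimate of the spread, were not left out in turn. Lowest adjusted p ran from 0.0503 (limma trend) to 0.843 (without A1). Neither the filter, which removed no locus, nor the threshold of 0.01 after 0 calls at 0.05 could change the count. The count changed only among A-labelled animals, where 2 loci were called lower. A term for the letter gave 0, as it is the same fit as leaving out M5. The mean over all loci, 1.94 units, stayed positive on the logit scale, by median and with genes weighted equally, and ranged from −1.19 to 3.73 when each animal was left out, with the negative value without M5. The ratio of median SDs, HID over SID, was 1.83 and became 3.62 with genes weighted equally. It ranged from 0.535 (without M5) to 3.31 (without A3) when each animal was left out. Each such ratio sets an SD from 2 animals against an SD from 3, so the range can in part reflect unequal numbers. Replicate numbers did not pair the animals. Deviations of same-numbered SID and HID animals correlated at 0.16, −0.01 and −0.02, and 1 of 3 SID animals correlated best with its own number. A replicate block called 0 loci and, being balanced over the diets, could not change the mean of 1.94. The filter on a mean score of at least 5 removed no locus.

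Among the 19 named loci, 5 changed direction without M5 and among A-labelled animals, with the same values in both: Smad7 intron 1 (−0.587), Bmp2 exon 1 a (−0.939), Bmp2 exon 1 b (−3.29), Ftl1 intron 2 (−3.34) and Smad6 exon 1 a (−1.52). Leaving out each animal gave ranges of −0.587 to 16.6, −2.38 to 4.58, −3.29 to 7.38, −3.34 to 11.7 and −1.52 to 15.9 at these loci. Smad9 intron 1 ranged from −2.69 to 3.00 and Smad6 exon 1 c from −6.06 to 3.90. The cause of these changes was not tested. None of the named loci changed direction on the logit scale. The fit to 6 animals and the replicate block leave each difference in means unchanged by design, so neither could change a direction. With unknown depth, the precision of a single score cannot be given.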

Other observations

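The same score, to every deposited decimal, occurred at 2 loci of 1 animal 6 times among the 432 scores of the table. In A4, for example, Slc11a2 intron 1 c and Bmp2 exon 1 a both scored 15.1, and in A1, Slc39a11 intron 7 a and intron 4 d both scored 63.3. The read counts behind these scores are unknown.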
